A study of Mus musculus with 42 samples.

Results

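The genes described here encode nuclear subunits of the mitochondrial respiratory chain and of ATP synthase, read in 2 kinds of mouse sensory ganglion. They were chosen by symbol: Nduf genes of the a, b, c, s and v series (complex I), Sdha to Sdhd (complex II), Uqcr genes (complex III), Cox4 to Cox8 genes (complex IV) and Atp5 genes (complex V). Only probe sets annotated to 1 symbol were used. This gave 82 of the 18337 genes that either array type read in this way. MG-U74Av2 arrays read 68 of them and Mouse430_2 arrays 81. Complexes I to V hold 35, 4, 8, 18 and 17 of the 82. Each gene is given by its probe set with the highest mean log2 signal, and levels of different probe sets are not set against each other.

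Complexes I and II pass electrons from NADH and from succinate to ubiquinone, complex III hands them to cytochrome c, and complex IV passes them to oxygen. Complexes I, III and IV pump protons across the inner mitochondrial membrane, and complex V uses the gradient to make ATP. Neurons rely on this route for the ion pumping that follows firing, and sensory neurons also supply very long axons.

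All samples were BALB/c mice in normal housing, with no treatment named and no age given. Nodose ganglia, which hold the cell bodies of vagal afferents, were set against dorsal root ganglia (DRG), which hold those of spinal afferents. Whole ganglia gave 7 nodose and 5 DRG arrays (MG-U74Av2). Laser-captured neurons, about 150 per sample, gave 5 nodose and 5 DRG arrays on MG-U74Av2, from amplified RNA, and 11 nodose and 9 DRG arrays on Mouse430_2, for which the label protocol names total RNA. Whether the latter RNA was amplified too could not be settled. The mean log2 ratio of 3′ to 5′ actin control signals was 5.71 in nodose and 5.61 in DRG on Mouse430_2. It was 5.82 and 5.45 in captured neurons on MG-U74Av2, and 2.94 and 2.80 in whole ganglia. Some descriptions speak of captured cells also for the whole-ganglion samples; the extraction protocol was followed there. How neurons were recognised for capture is not given. The labels tie no arrays of a group to different animals. The spread that the tests use is therefore that of the arrays at hand, and may be technical.

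Neuronal markers were well measured in all 6 groups, and markers of other cells were present too. In whole ganglia the summed signal of 12 skeletal muscle markers was 670 to 2998 on nodose and 404 to 965 on DRG arrays, that of 13 macrophage and lymphocyte markers 1512 to 2280 and 876 to 1429, and that of 13 endothelial and mural markers 1444 to 2443 and 1062 to 1427. In captured neurons, the summed signal of satellite glia and Schwann cell markers was higher in DRG without overlap, at 14520 to 16970 against 12400 to 13580 on MG-U74Av2 and 13750 to 16510 against 10900 to 13550 on Mouse430_2. Its members were mixed: 3 of 9 and 4 of 10 were called lower in nodose and 0 higher, while 4 and 2 had values above 0. Of all probe sets, 11.3% and 12.5% were called lower in nodose on these array types. Macrophage and lymphocyte markers summed to 947 to 1215 in captured nodose and 551 to 732 in captured DRG on MG-U74Av2, without overlap. Of the 7 tested there, 2 were called higher in nodose and 0 lower, but only 3 had values above 0 (median -0.03). Endothelial and mural markers summed to 859 to 1619 and 1621 to 3233 on Mouse430_2, without overlap. Of the 10 tested there, 2 were called higher in nodose and 3 lower, and 3 had values above 0 (median -0.35). Of all probe sets, 10.4% and 9.72% were called higher in nodose on these array types. The part of these markers in the results that follow was not tested. In such samples, fewer cells of a type and less RNA per cell cannot be told apart.

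The promoters of 7 members that the results turn on are printed here, so that the sequence before each start can be read beside the values. They are the 250 bases before the annotated start, from RefSeq on build GRCm38.p6, 5′ to 3′ in the direction of transcription. The first 4 belong to the genes called the same way in all 3 ganglion comparisons, and the last 3 to those with the largest fitted change of the ganglion difference between whole ganglia and captured neurons. Capitals mark matches on either strand to GCGCA and GCGC with any 1 base between them (nuclear respiratory factor 1, NRF1), CCGGAAG (the ETS core, which GABP binds), AAGATGGCG (YY1) or TCAAGGTCA (estrogen-related receptors, ERR). The stretches lie at chr19:4012756-4013005 (minus strand) for Ndufv1, chr13:74350241-74350490 (minus strand) for Sdha, chr9:108936398-108936647 (plus strand) for Uqcrc1 and chr1:58586147-58586396 (plus strand) for Ndufb3. Those of Cox7b, Uqcr11 and Atp5e lie at chrX:106015450-106015699 (plus strand), chr10:80406822-80407071 (minus strand) and chr2:174464102-174464351 (minus strand).
Ndufv1: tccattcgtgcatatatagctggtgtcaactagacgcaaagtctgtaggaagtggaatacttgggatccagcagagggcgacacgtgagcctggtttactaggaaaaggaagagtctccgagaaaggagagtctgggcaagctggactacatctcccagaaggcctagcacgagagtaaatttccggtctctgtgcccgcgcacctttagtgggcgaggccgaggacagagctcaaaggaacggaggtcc
Sdha: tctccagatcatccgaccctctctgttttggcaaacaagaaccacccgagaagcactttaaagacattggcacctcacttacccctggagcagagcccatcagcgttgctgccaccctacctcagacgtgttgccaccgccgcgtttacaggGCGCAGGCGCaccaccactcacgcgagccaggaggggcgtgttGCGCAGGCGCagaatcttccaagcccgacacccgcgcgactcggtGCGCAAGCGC
Uqcrc1: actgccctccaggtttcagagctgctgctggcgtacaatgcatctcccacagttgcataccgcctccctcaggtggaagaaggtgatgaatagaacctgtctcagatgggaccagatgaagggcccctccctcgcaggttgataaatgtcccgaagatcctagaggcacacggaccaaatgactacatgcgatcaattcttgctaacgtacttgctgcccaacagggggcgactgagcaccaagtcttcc
Ndufb3: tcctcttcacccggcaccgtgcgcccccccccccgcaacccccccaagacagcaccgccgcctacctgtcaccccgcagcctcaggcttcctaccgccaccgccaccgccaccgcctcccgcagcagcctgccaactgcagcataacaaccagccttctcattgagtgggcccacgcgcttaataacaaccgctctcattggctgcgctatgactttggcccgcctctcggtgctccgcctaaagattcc
Cox7b: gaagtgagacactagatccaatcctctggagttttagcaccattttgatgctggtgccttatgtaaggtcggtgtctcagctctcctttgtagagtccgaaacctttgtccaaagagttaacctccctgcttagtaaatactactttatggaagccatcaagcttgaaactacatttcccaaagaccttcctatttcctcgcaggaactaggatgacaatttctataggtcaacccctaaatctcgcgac
Uqcr11: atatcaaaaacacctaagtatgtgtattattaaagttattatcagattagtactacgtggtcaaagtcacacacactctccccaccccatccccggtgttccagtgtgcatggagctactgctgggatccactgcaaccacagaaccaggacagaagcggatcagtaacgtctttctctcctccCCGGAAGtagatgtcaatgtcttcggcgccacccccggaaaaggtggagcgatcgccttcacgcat
Atp5e: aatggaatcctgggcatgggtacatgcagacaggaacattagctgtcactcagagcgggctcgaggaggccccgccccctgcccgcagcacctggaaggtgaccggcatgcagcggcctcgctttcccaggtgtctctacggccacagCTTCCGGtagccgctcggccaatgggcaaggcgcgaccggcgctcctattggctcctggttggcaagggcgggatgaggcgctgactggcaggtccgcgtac

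Sdha holds 3 matches to the NRF1 motif, and Uqcr11 and Atp5e hold 1 match each to the ETS core. The other 4 stretches hold none of the 4 motifs. Of the 82 members, 67 had an entry, with 72 promoters among them. The NRF1 motif lay in 12 of the 72 (16.7%) and in 3.74% of all 32851 promoters, and the ETS core in 12 (16.7%) against 6.91%. YY1 and ERR matches were found in 1 member promoter each (1.39%), those of Atp5j and Atp5g3, against 0.606% and 0.387% of all. By complex, the NRF1 motif lay in 5 of 33 promoters of complex I, 2 of 3 of complex II, 0 of 5 of complex III, 1 of 13 of complex IV and 4 of 18 of complex V. Median GC content was 56.4% in member promoters and 52.4% in all. These are matches of letters, not measured binding sites.

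The first comparison asked whether nodose and DRG differ in these transcripts, and whether the 5 complexes do so alike. In whole ganglia, 24 of 58 tested members were higher in nodose and 5 higher in DRG (limma, adjusted p under 0.05). Of all 7698 probe sets tested, 35.4% were called, 19.6% higher in nodose and 15.8% higher in DRG. The median log2 difference, nodose minus DRG, was 0.14 over the members and 0.05 over all probe sets. Complex I had 11 of 25 higher in nodose and 2 higher in DRG, complex II 1 and 1 of 4, complex III 4 and 0 of 7, complex IV 4 and 0 of 10, and complex V 4 and 2 of 12.

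This balance depended on the scaling and on the nodose arrays used. With every array set to the same median, 15 members were higher in nodose and 8 in DRG, beside 13.3% and 19.9% of all probe sets, while the median of all probe sets moved from 0.05 to -0.05 and the members' median above it from 0.09 to 0.08. Of the 7 nodose arrays, 4 (046, 036, 023 and 026) exceeded every DRG array in summed muscle signal. Without them, with 3 nodose arrays left, 9 members were higher in nodose and 8 in DRG of 58 tested, beside 13.1% and 11.1% of all 7827 probe sets, and the members' median was 0.02, as was that of all probe sets. Of the named genes, Ndufa2, Ndufb6, Cox4i1, Cox5b, Cox6a1, Cox7b and Atp5c1 were then no longer called in whole ganglia (adjusted p of 0.067 to 0.344 in limma). The arrays left out differed in other ways too. Their log2 ratios of 3′ to 5′ Gapdh control signals were 6.02, 5.20, 5.89 and 5.90, beside 4.87, 5.52 and 5.14 on the 3 kept. Of the 3 kept, array 073 had a mean log2 deviation of members of -0.17, within the DRG range of -0.19 to -0.04. Whether muscle, the smaller number of arrays or such differences between arrays account for the change was not tested.

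Captured neurons on MG-U74Av2 had 5 members higher in nodose and 9 higher in DRG, of 59 tested. The background was 21.8% of 7583 probe sets called, 10.4% higher in nodose and 11.3% in DRG, and the medians were 0.03 for members and 0.05 for all. Complex IV had 0 higher in nodose and 4 in DRG of 11, complex I 1 and 3 of 26, complex II 1 and 0 of 4, complex III 2 and 1 of 6, and complex V 1 and 1 of 12. Leaving out DRG array 010 lowered the count higher in nodose to 2, beside 8.15% of all probe sets. With probe sets free of shared probes, 44 members were tested. Of these, 5 were higher in nodose and 3 in DRG, beside 10.8% and 11.2% of all probe sets.

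Captured neurons on Mouse430_2 had 18 members higher in nodose and 5 higher in DRG, of 76 tested. Of all 28107 probe sets, 22.2% were called, 9.72% higher in nodose and 12.5% in DRG. The members' median was 0.16 and that of all probe sets -0.05. Complex V had 5 higher in nodose and 0 in DRG of 17, complex I 6 and 4 of 34, complex II 2 and 0 of 4, complex III 3 and 1 of 8, and complex IV 2 and 0 of 13. With arrays set to the same median, the split was 26 and 0, beside 13.7% and 7.86% of all probe sets, the median of all probe sets moved to 0.09, and the members' median above it went from 0.21 to 0.23.

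**Figure D1:**
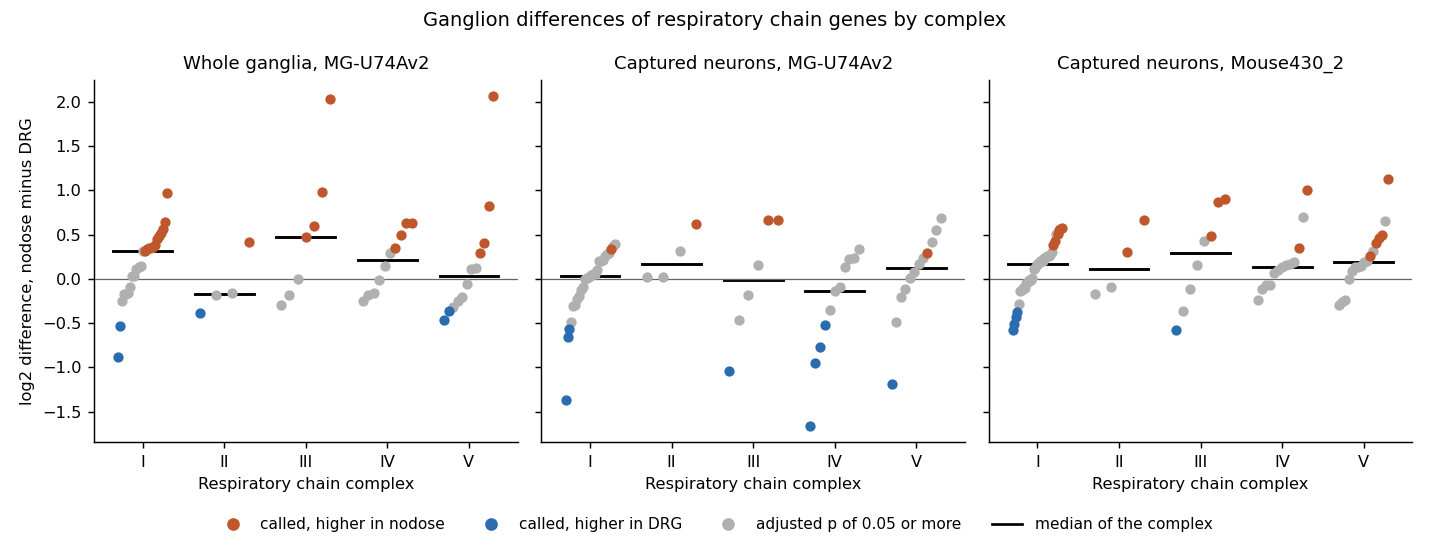
Log2 difference, nodose minus DRG (vertical axis), of each tested member, by complex (horizontal axis) and experiment; coloured points passed an adjusted p of 0.05 and black lines are medians. Complex III has the highest median in whole ganglia (0.48) and on Mouse430_2 (0.29), and complex IV the lowest in captured neurons on MG-U74Av2 (-0.13).

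Averaged per array as log2 deviations, complex III members lay between -0.21 and 0.45 on whole nodose arrays and between -0.41 and -0.15 on whole DRG arrays. Those ranges overlapped through nodose array 073 alone. Complex IV members of captured neurons on MG-U74Av2 lay between -0.29 and -0.07 in nodose and between -0.04 and 0.30 in DRG, without overlap. On Mouse430_2 the ranges overlapped for every complex, as for complex V at -0.10 to 0.41 in nodose and -0.36 to 0.20 in DRG. Single members did not overlap between the ganglia in 16 of 58 cases in whole ganglia (18.1% of all probe sets), 10 of 59 in captured neurons on MG-U74Av2 (16.3%) and 2 of 76 on Mouse430_2 (3.84%).

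Ndufv1, Sdha and Uqcrc1 were higher in nodose in all 3 comparisons, and Ndufb3 was higher in DRG in all 3. Ndufv1 is the complex I flavoprotein that takes electrons from NADH, Sdha the flavoprotein of succinate dehydrogenase, and Uqcrc1 a core protein of complex III. Ndufb3 is a small accessory subunit of complex I. Captured samples on the 2 array types share sample numbers, so the 3 comparisons are not independent.

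Uqcrc1 signals in whole ganglia were 2069 to 3514 (median 3012) in nodose and 1790, 1906, 1947, 1983 and 1988 in DRG. Captured neurons on MG-U74Av2 read 3307, 3350, 3640, 3994 and 4203 in nodose and 1934, 2255, 2423, 2498 and 2524 in DRG. On Mouse430_2 they read 2542 to 4777 (median 3792) in nodose and 1393 to 2374 (median 2038) in DRG. In each experiment every nodose array lay above every DRG array. The log2 differences of Uqcrc1 were 0.60 ± 0.11 (SE, adjusted p = 0.000327), 0.67 ± 0.11 (SE, adjusted p = 0.000425) and 0.86 ± 0.12 (SE, adjusted p = 3.14e-06). It stayed called in each alternative setting tried and without any 1 array.

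Ndufv1 read 3303 to 4588 (median 3999) in whole nodose and 2225, 2514, 2538, 2789 and 2884 in whole DRG. Captured neurons on MG-U74Av2 read 2542, 2906, 3140, 3238 and 3315 in nodose and 1929, 2441, 2456, 2485 and 2640 in DRG. On Mouse430_2 the values were 3485 to 5188 (median 3941) and 2516 to 3392 (median 2617). The ganglia were apart in whole ganglia and on Mouse430_2, and on MG-U74Av2 captured arrays the lowest nodose array fell below the highest DRG array. The log2 differences of Ndufv1 were 0.64 ± 0.09 (SE, adjusted p = 4.93e-05), 0.34 ± 0.11 (SE, adjusted p = 0.0397) and 0.57 ± 0.08 (SE, adjusted p = 1.03e-05). The middle call was lost in 8 of 10 fits without 1 array, with an adjusted p of up to 0.0963 in limma.

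Sdha read 329.5 to 462 (median 413) in whole nodose and 266, 279, 283, 305 and 386 in whole DRG. Captured neurons on MG-U74Av2 read 192, 223, 246, 300.4 and 382 in nodose and 133, 149, 172, 186 and 200.1 in DRG. On Mouse430_2 the values were 3014 to 3787 (median 3439) and 2267 to 3480 (median 2771). In all 3 the highest DRG array reached into the nodose range. For Sdha the log2 differences were 0.42 ± 0.11 (SE, adjusted p = 0.00834), 0.62 ± 0.19 (SE, adjusted p = 0.0292) and 0.31 ± 0.08 (SE, adjusted p = 0.00577). The middle call was lost in 4 of 10 fits without 1 array (adjusted p of up to 0.0736), and in the Mouse430_2 sample numbers not found on MG-U74Av2 the value was 0.13 (adjusted p = 0.48). The Mouse430_2 probe set of Sdha has a name that marks probes shared with other transcripts.

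Ndufb3 read 126 to 197 (median 144) in whole nodose and 192, 283, 289, 343 and 389 in whole DRG. Captured neurons on MG-U74Av2 read 140.4, 184, 200.3, 241 and 277 in nodose and 275, 279, 288, 336 and 366 in DRG. On Mouse430_2 the values were 265 to 452 (median 379) and 341 to 785 (median 627). DRG was the higher group each time, with some overlap. The log2 differences of Ndufb3 were -0.88 ± 0.16 (SE, adjusted p = 0.000294), -0.57 ± 0.18 (SE, adjusted p = 0.0337) and -0.57 ± 0.14 (SE, adjusted p = 0.00415). The middle call was lost in 6 of 10 fits without 1 array (adjusted p of up to 0.083), and the Mouse430_2 value in numbers not found on MG-U74Av2 was -0.44 (adjusted p = 0.223).

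**Figure D2:**
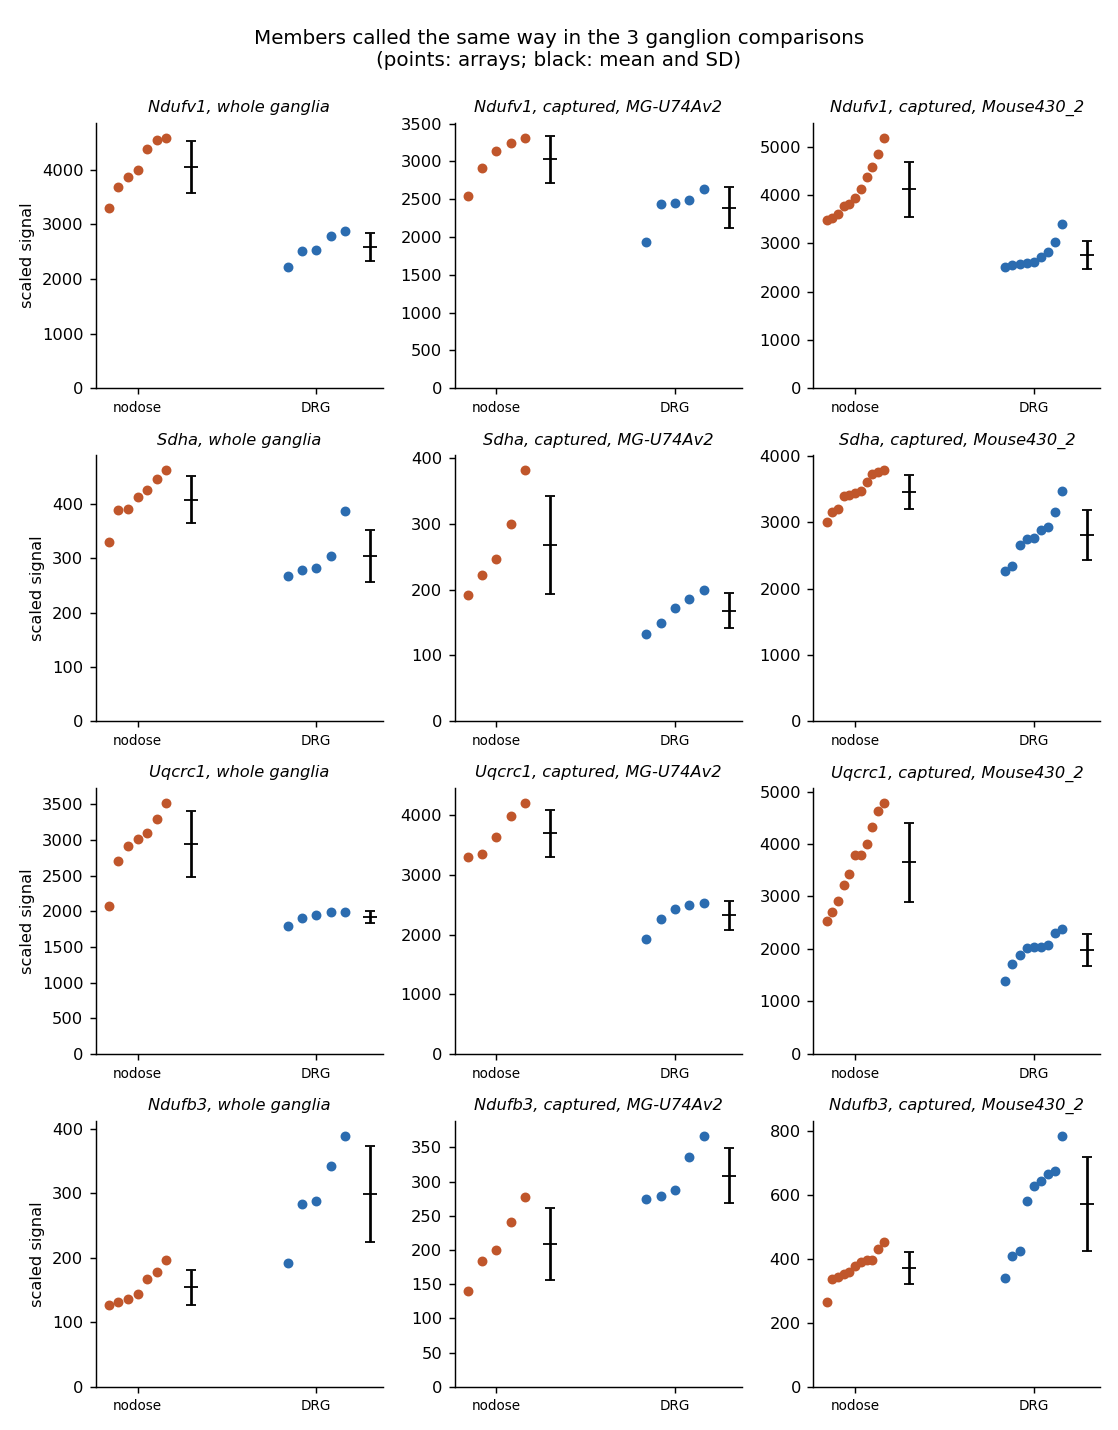
Scaled signal (vertical axis) of Ndufv1, Sdha, Uqcrc1 and Ndufb3 on every array of nodose and DRG, for whole ganglia and for captured neurons on both array types; black marks give mean and SD. The Uqcrc1 groups do not overlap in any experiment, and Ndufb3 is the member with DRG above nodose in all 3.

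In complex I the other members differed in size and direction. Ndufa9, an accessory subunit close to the ubiquinone site, read 2143 to 3387 (median 3167) in whole nodose and 1227 to 1599 (median 1509) in whole DRG. The groups lay apart, with a log2 difference of 0.97 ± 0.13 (SE, adjusted p = 1.6e-05). Ndufa2, a small accessory subunit, was higher in nodose in whole ganglia, at 0.57 (adjusted p = 0.0018), and on Mouse430_2, at 0.38 (adjusted p = 0.0452). The name of the Mouse430_2 probe set of Ndufa2 marks probes shared with other transcripts. On Mouse430_2 the accessory subunits Ndufa8, at 0.56 (adjusted p = 0.00269), and Ndufb9, at 0.55 (adjusted p = 0.00151), were higher in nodose too, and Ndufc2 was lower, at -0.50 (adjusted p = 0.00341). The Ndufc2 value comes from a shared-probe probe set and was -0.17 (adjusted p = 0.607) in the sample numbers not found on MG-U74Av2, -0.83 (adjusted p = 0.000245) in the others and -0.036 (adjusted p = 0.944) with its probe set free of shared probes.

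Ndufa3, another accessory subunit, was lower in nodose in both MG-U74Av2 experiments. Whole ganglia read 227 to 335 (median 306) in nodose and 371, 402, 403, 421 and 431 in DRG, and captured neurons 184, 229.7, 277, 289 and 388 in nodose and 645, 677, 713, 722 and 762 in DRG. Neither pair overlapped. In log2 units the differences were -0.53 ± 0.12 (SE, adjusted p = 0.00213) and -1.37 ± 0.17 (SE, adjusted p = 5.27e-05). The name of this probe set marks probes shared with other transcripts, and a second such probe set gave 0.31 (adjusted p = 0.39) and -0.45 (adjusted p = 0.319).

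Ndufb5, of the membrane arm, read 2785 to 3379 in captured nodose and 4327 to 5202 in captured DRG on MG-U74Av2. The groups lay apart, with a log2 difference of -0.66 ± 0.09 (SE, adjusted p = 0.000115), and Mouse430_2 gave -0.38 (adjusted p = 0.0284). On MG-U74Av2 Ndufb5 was read by a shared-probe probe set. The Mouse430_2 value of Ndufb5 was -0.16 (adjusted p = 0.611) in the sample numbers not found on MG-U74Av2 and -0.54 (adjusted p = 0.0314) in the others. Ndufb6, also of the membrane arm, changed sides between experiments. Whole ganglia read 53.5 to 72.5 in nodose and 33.4 to 51.9 in DRG, a difference of 0.45 (adjusted p = 0.0193), and Mouse430_2 read 528 to 738 and 690.4 to 1224, a difference of -0.43 (adjusted p = 0.0106). The whole-ganglion call of Ndufb6 was lost without DRG array 026 (0.40, adjusted p = 0.0637) or 037 (0.39, adjusted p = 0.0563).

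Complex II is the smallest, and its 4 subunits did not move together. Sdhb, the iron-sulfur subunit, read 2591 to 4347 (median 3270) in nodose and 1661 to 3284 (median 1942) in DRG on Mouse430_2, with overlap. Its log2 difference there was 0.66 ± 0.12 (SE, adjusted p = 8.97e-05), beside 0.32 (adjusted p = 0.0586) in captured neurons on MG-U74Av2 and -0.18 (adjusted p = 0.182) in whole ganglia. Sdhc, a membrane anchor, read 728 to 1051 in whole nodose and 919 to 1474 in whole DRG, a difference of -0.39 ± 0.12 (SE, adjusted p = 0.015). It was not called in captured neurons, at 0.02 (adjusted p = 0.922) and -0.09 (adjusted p = 0.735). Without DRG array 070 the whole-ganglion value was -0.29 (adjusted p = 0.0576). The other anchor, Sdhd, was not called in any of the 3, at -0.16 (adjusted p = 0.377), 0.03 (adjusted p = 0.944) and -0.17 (adjusted p = 0.381).

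In complex III, small subunits went both ways. Uqcr11 read 18.3 to 103 (median 67.5) in whole nodose and 5.64, 5.74, 6.61, 7.49 and 7.88 in whole DRG. The groups lay apart, but all DRG values were under the pseudocount of 11.7. The log2 difference of Uqcr11, 2.04 ± 0.27 (SE, adjusted p = 1.95e-05), therefore ran from 1.17 to 3.05 over the other settings. With DRG signals this low, only nodose arrays can have let Uqcr11 into the test. Its call and the gap between the groups are thus not independent of that choice. Uqcrq, a subunit next to cytochrome b, read 753 to 1667 (median 1025) in whole nodose and 482 to 642 (median 537) in whole DRG, without overlap, a difference of 0.98 ± 0.17 (SE, adjusted p = 0.000185). On Mouse430_2 it differed by 0.90 (adjusted p = 0.000106) by a shared-probe probe set, while its other probe set gave -0.20 (adjusted p = 0.422).

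Uqcrb, a subunit that binds ubiquinone, was higher in captured DRG neurons. On MG-U74Av2 it read 110.3, 128, 172, 218 and 226 in nodose and 301, 306, 330.3, 398 and 439.9 in DRG, and on Mouse430_2 2055 to 3681 (median 3091) and 3236 to 5846 (median 4563). The groups were apart on the first array type and overlapped on the second. The log2 differences of Uqcrb were -1.04 ± 0.20 (SE, adjusted p = 0.00182) and -0.58 ± 0.13 (SE, adjusted p = 0.00131). The MG-U74Av2 value of Uqcrb comes from a shared-probe probe set. Its Mouse430_2 value was -0.36 (adjusted p = 0.22) in the sample numbers not found on MG-U74Av2 and -0.78 (adjusted p = 0.00122) in the others. Whole nodose arrays spread over 81.8 to 514, around the DRG range of 219.8 to 398. Uqcrc2, the second core protein, was higher in captured nodose on MG-U74Av2, at 0.67 (adjusted p = 0.0296) by a shared-probe probe set. This call was lost in 5 of 10 fits without 1 array (adjusted p of up to 0.0774). The Rieske protein Uqcrfs1 was higher on Mouse430_2, at 0.49 (adjusted p = 0.0223), and at 0.41 (adjusted p = 0.0522) without DRG array 005.

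In complex IV, Cox7b, a small subunit around the catalytic core, changed sides between preparations. Whole ganglia read 178 to 326 (median 228) in nodose and 115, 135, 143, 168 and 202 in DRG. Captured neurons read 80.7, 105, 108, 134 and 186 in nodose and 289, 377, 410, 416 and 525 in DRG. Nodose was the higher group with some overlap in whole ganglia, and lay wholly below DRG in captured neurons. The log2 differences of Cox7b were 0.63 ± 0.15 (SE, adjusted p = 0.00332) and -1.66 ± 0.21 (SE, adjusted p = 5.04e-05). Cox7b was not read by a single-symbol probe set on Mouse430_2.

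Subunits with tissue isoforms were read where measured. Cox4i1, the general isoform of subunit 4, was higher in nodose in whole ganglia, at 0.35 (adjusted p = 0.0221), and on Mouse430_2, at 0.35 (adjusted p = 0.00218), and not called between them, at 0.22 (adjusted p = 0.288). Without DRG array 070 the whole-ganglion value was 0.32 (adjusted p = 0.0597). Its other probe set in whole ganglia gave -0.12 (adjusted p = 0.566). Cox4i2, the isoform known from lung, was dim on Mouse430_2, at 29.3 to 90.7 in nodose and 6.29 to 61.6 in DRG, a difference of 0.70 (adjusted p = 0.0575). Cox6a1, the general isoform of subunit 6a, was higher in whole nodose, at 0.50 (adjusted p = 0.0086) by a shared-probe probe set.

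Cox6a2, the muscle isoform of subunit 6a, was too dim for a test on MG-U74Av2. Whole nodose arrays read 13.5, 15.1, 15.2, 27.9, 51.2, 167 and 280, and DRG arrays 10.5 to 16.5. The highest array, 026, was also the highest in summed muscle markers (2998). Captured neurons read 15.4 to 22 in nodose and 4.49 to 21.6 in DRG, and on Mouse430_2 the difference was -0.24 (adjusted p = 0.432).

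Cox8b, a muscle isoform of subunit 8, read 15.3 to 40.6 in captured nodose and 46.8 to 80.7 in captured DRG on MG-U74Av2. The groups lay apart, with a log2 difference of -0.95 ± 0.24 (SE, adjusted p = 0.0117) by a shared-probe probe set. Cox8a, the general isoform, differed by 1.004 (adjusted p = 0.0242) on Mouse430_2, also by a shared-probe probe set, while its other probe set gave -0.02 (adjusted p = 0.962). The call of Cox8a was lost without DRG array 010 (0.83) or 014 (0.77), with an adjusted p of up to 0.0598. Its value was 0.21 (adjusted p = 0.591) in the sample numbers not found on MG-U74Av2 and 1.53 (adjusted p = 0.00154) in the others. Cox7a2, the general isoform of subunit 7a, was lower in captured nodose on MG-U74Av2, at -0.77 (adjusted p = 0.0125). Cox5b, which binds zinc, was higher in whole nodose, at 0.63 (adjusted p = 0.0042).

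In complex V, Atp5e, the epsilon subunit of the central stalk, had the largest difference in whole ganglia and on Mouse430_2, but not in captured neurons on MG-U74Av2. Whole ganglia read 44.6 to 144 (median 104) in nodose and 6.55, 11.4, 16.2, 17.9 and 28.6 in DRG, without overlap, a log2 difference of 2.06 ± 0.24 (SE, adjusted p = 3.33e-06). On Mouse430_2 Atp5e read 376 to 976 (median 572) and 162 to 501 (median 252), with overlap, a difference of 1.13 ± 0.17 (SE, adjusted p = 1.26e-05). Captured neurons on MG-U74Av2 read 46.6 to 71.6 and 27.2 to 50.8, a difference of 0.56 (adjusted p = 0.0622). All 3 values of Atp5e come from shared-probe probe sets.

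Of the catalytic head, the beta subunit Atp5b read 2179 to 2815 in nodose and 1413 to 2265 in DRG on Mouse430_2, a difference of 0.50 ± 0.09 (SE, adjusted p = 0.00026). The alpha subunit Atp5a1 was higher in nodose in whole ganglia, at 0.29 (adjusted p = 0.00778), and in captured neurons on MG-U74Av2, at 0.29 (adjusted p = 0.00717). On Mouse430_2 its 3 probe sets disagreed, at 0.21 (adjusted p = 0.077), 0.45 (adjusted p = 0.00105) and -0.68 (adjusted p = 0.000783). The gamma subunit Atp5c1, the rotor shaft, was higher in whole nodose, at 0.40 (adjusted p = 0.00188). Atp5d, the delta subunit, was lower in whole nodose, at -0.36 (adjusted p = 0.0118), and higher on Mouse430_2, at 0.46 (adjusted p = 0.00367), but in whole ganglia its probe set without shared probes gave 0.20 (adjusted p = 0.487). On Mouse430_2 Atp5d was read by a shared-probe probe set.

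Atp5o, which joins the head to the stator, read 674 to 1112 in whole nodose and 472 to 631 in whole DRG, a difference of 0.82 ± 0.12 (SE, adjusted p = 6.13e-05). Atp5l, subunit g of the membrane part, was lower in whole nodose, at 58.5 to 87.4 against 99.5 to 115, a difference of -0.46 ± 0.12 (SE, adjusted p = 0.00575). Neither pair overlapped. Atp5md, a small membrane subunit, read 337, 374, 412, 579 and 921 in captured nodose and 969, 1025, 1155, 1206 and 1294 in captured DRG on MG-U74Av2. Those groups lay apart, with a difference of -1.18 ± 0.23 (SE, adjusted p = 0.00178), and Mouse430_2 gave -0.26 (adjusted p = 0.28). The MG-U74Av2 value of Atp5md comes from a shared-probe probe set.

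The second comparison set captured neurons against whole ganglia on MG-U74Av2. Capture, amplification and experiment cannot be told apart in it. In DRG, 24 of 61 tested members were higher in captured neurons and 7 lower, where 47.2% of 8309 probe sets were called (22.9% higher, 24.3% lower). In nodose, 21 were higher and 17 lower, where 55.3% were called (26.2% higher, 29.2% lower). With arrays set to the same median they were 26 and 13, beside 36.2% and 23.2% of all probe sets. Of 9 neuron markers, 4 were higher and 2 lower in captured DRG (median -0.06), and 5 and 4 in captured nodose (median 0.375). Of 9 satellite glia and Schwann cell markers, 3 and 3 were called in DRG (median 0.03), and 1 and 6 in nodose (median -0.74). Of 6 fibroblast markers, 0 and 5 were called in DRG, and 0 and 6 in nodose. The neuron and glia medians in DRG both lay near 0. Sdhd was lower in captured neurons in both ganglia, at -1.61 (adjusted p = 4.27e-08) in DRG and -1.42 (adjusted p = 5.14e-08) in nodose, and so was the complex I subunit Ndufb8, at -1.24 (adjusted p = 6.52e-07) and -1.49 (adjusted p = 5.29e-09). Ndufa2 was higher in both, at 1.34 (adjusted p = 1.16e-08) and 0.58 (adjusted p = 0.000325). Cox7b was higher in captured DRG, at 1.34 ± 0.19 (SE, adjusted p = 2.54e-06), and lower in captured nodose, at -0.95 ± 0.18 (SE, adjusted p = 6.02e-05).

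The nodose minus DRG difference itself changed between preparations for 20 of 61 members, 17 with a lower and 3 with a higher value in captured neurons. Of all probe sets, 18.2% were called, 7.71% higher and 10.5% lower. The members' median change was -0.23 and that of all probe sets -0.02. With arrays set to the same median, the median of all moved to 0.10 and the calls were 9 lower and 4 higher, beside 7.46% and 11.2% of all probe sets. In the main fit the lower ones were 7 of complex I, 3 of complex III, 4 of complex IV and 3 of complex V. Among them, Ndufa2, Cox5b and Cox7b were no longer called in whole ganglia without the nodose arrays high in muscle markers. The change between preparations was not fitted without those arrays. The higher ones were Sdhb, at 0.50 (adjusted p = 0.0203), Uqcrc2, at 0.97 (adjusted p = 0.00892), and Atp5g2, a gene for the rotor ring, at 0.74 (adjusted p = 0.0425). All 3 rest on shared-probe probe sets. The calls of Atp5g2, Atp5md and Cox8b were lost in 15, 16 and 14 of 22 fits without 1 array (adjusted p of up to 0.0889), and that of Uqcr10 in 6.

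Cox7b changed by -2.29 ± 0.26 (SE, adjusted p = 8.37e-07). For Uqcr11 the fitted change was -1.98 ± 0.37 (SE, adjusted p = 0.000374): its nodose signals, with a median of 67.5 in whole ganglia, were 9.28, 10.5, 11, 15.5 and 17.9 in captured neurons, beside 9.92 to 12.8 in captured DRG. Outside whole nodose the signals of Uqcr11 lay near or under the pseudocount of 11.4, so the size of its change is not settled. The change ran from -2.92 to -1.81 over the other settings. Uqcr11 was let into this fit by its whole nodose signals, so its call is not independent of that choice. Atp5e changed by -1.53 ± 0.32 (SE, adjusted p = 0.00132). Cox6c, another small complex IV subunit, read 1601 to 2869 (median 2535) in whole nodose and 1655 to 2251 (median 1810) in whole DRG, which overlapped. Captured neurons read 2629 to 3198 and 3611 to 4796, which did not, and the change was -0.81 ± 0.18 (SE, adjusted p = 0.00186). On MG-U74Av2 Cox6c was read by a shared-probe probe set. Beside these, cytosolic ribosomal protein genes had 9 of 26 lower and 0 higher in the same test.

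**Figure D3:**
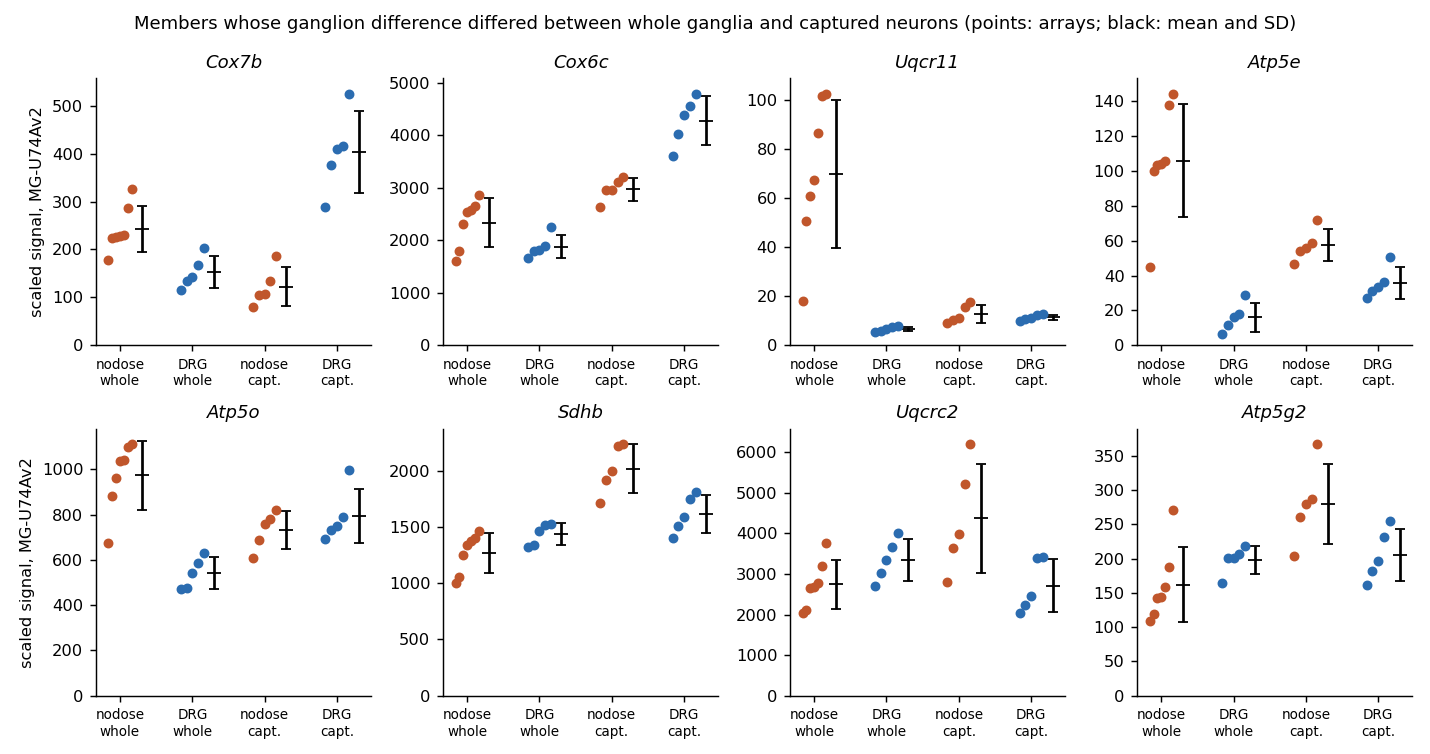
Scaled signal (vertical axis) of members whose ganglion difference changed between preparations, on every MG-U74Av2 array of whole and captured samples, nodose and DRG; black marks give mean and SD. Cox7b is higher in nodose in whole ganglia and lower in nodose in captured neurons.

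Captured samples carry numbers, and 5 nodose and 5 DRG numbers of Mouse430_2 also occur on MG-U74Av2. In 10 of 10 cases an array correlated best with the array of its own number on the other type (r of 0.20 to 0.47 over deviations of 5327 genes). The labels do not say whether such arrays read the same sample. In the 6 nodose and 4 DRG numbers found on Mouse430_2 alone, 17 of 76 members were higher in nodose and 0 in DRG, where 14.9% of probe sets were called (6.70% higher in nodose, 8.19% in DRG). In the numbers found on both, 9 were higher in nodose and 11 in DRG, where the shares were 7.02% and 9.29% of 27634 probe sets.

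A test of the difference between these sets of numbers was chosen after their counts were seen. It called 6 of 76 members, 5 above and 1 below 0, where 2.43% of probe sets were called (0.914% above, 1.51% below). Cox6c had the largest value, 2.07 ± 0.24 (SE, adjusted p = 9.11e-05). Its signals were 662 to 922 in nodose and 1201 to 2246 in DRG in the numbers on both array types, and 1090 to 1882 and 539 to 856 in the others. Neither pair overlapped, and they ran in opposite directions, at -1.07 (adjusted p = 0.000218) and 0.99 (adjusted p = 0.000843). Over all 20 arrays the difference was -0.07 (adjusted p = 0.873).

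Ndufa4, named for complex I but placed in complex IV by later work, read 210.1 to 328 in nodose and 402 to 657 in DRG in the numbers on both array types, and 246 to 360.2 and 132 to 218 in the others. The differences differed by 1.82 ± 0.26 (SE, adjusted p = 0.000579). Ndufa3 read 231 to 369 and 455 to 685, and in the others 489 to 834 and 297 to 463, a change of 1.74 ± 0.26 (SE, adjusted p = 0.000753). For both genes DRG was high in the first set of numbers and nodose in the second. Atp5k, subunit e, changed by 1.22 ± 0.30 (SE, adjusted p = 0.031) and the complex I subunit Ndufb7 by 0.93 ± 0.25 (SE, adjusted p = 0.0491), while Uqcrc2 changed the other way, by -0.94 ± 0.23 (SE, adjusted p = 0.0272). The values of Ndufa3 and Atp5k come from shared-probe probe sets.

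Other members were called alike in both sets of numbers. Uqcrc1 was higher in nodose by 0.92 (adjusted p = 0.000134) in the numbers on Mouse430_2 alone and by 0.76 (adjusted p = 0.00331) in the others. Ndufv1 was higher by 0.64 (adjusted p = 0.00128) and 0.52 (adjusted p = 0.00786), Sdhb by 0.78 (adjusted p = 0.000976) and 0.56 (adjusted p = 0.0302), and Atp5e by 1.44 (adjusted p = 0.000316) and 0.84 (adjusted p = 0.0147). Counts of ribosomal protein genes called differed between the sets of numbers too: of 47, 4 were higher in nodose and 1 in DRG in the numbers on Mouse430_2 alone, and 0 and 10 in the others. Those of marker lists did as well. Of 11 neuron markers, 0 were higher in nodose and 4 in DRG in the numbers on Mouse430_2 alone (median -0.40), and 1 and 1 in the others (median 0.18). Of 9 endothelial and mural markers, 2 and 2 were called in the first set (median 0.03) and 1 and 5 in the second (median -1.17).

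Signal ratios of control genes, a measure of RNA integrity, are given beside these. The mean log2 ratio of 3′ to 5′ actin control signals was 6.01 ± 0.12 (SD, n = 5) in nodose and 5.61 ± 0.20 (SD, n = 5) in DRG in the numbers on both types, and 5.45 ± 0.32 (SD, n = 6) and 5.60 ± 0.38 (SD, n = 4) in the others. That of Gapdh was 7.02 ± 0.36 (SD, n = 5) in nodose and 6.70 ± 0.16 (SD, n = 5) in DRG in the numbers on both types, and 6.43 ± 0.16 (SD, n = 6) and 7.10 ± 0.64 (SD, n = 4) in the others. The mean Gapdh ratio was thus higher in nodose than in DRG in the first set of numbers and lower in the second. The part of these ratios and markers in the differences was not tested.

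**Figure D4:**
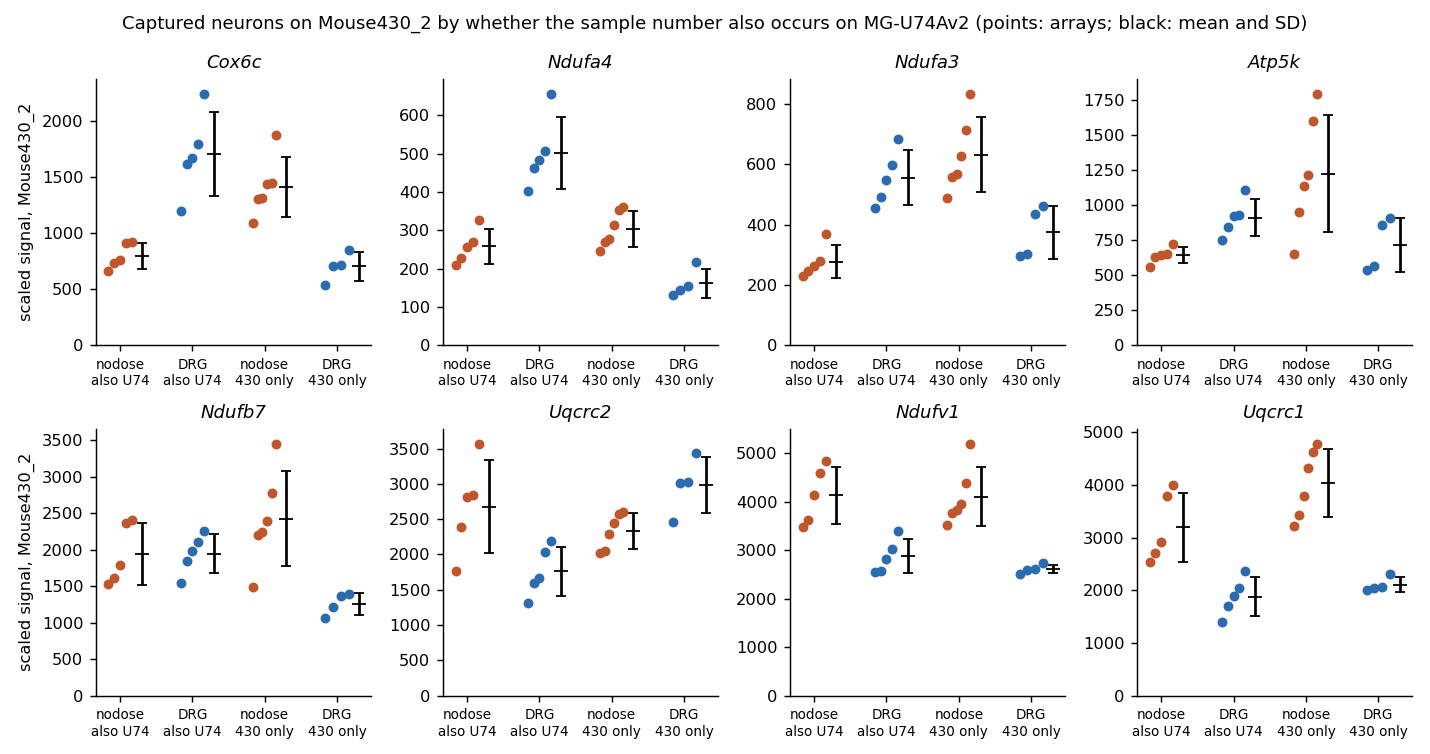
Scaled signal on Mouse430_2 (vertical axis) of members in captured neurons, split by whether the sample number also occurs on MG-U74Av2; points are arrays and black marks give mean and SD. Cox6c, Ndufa4 and Ndufa3 show opposite orders of nodose and DRG in the 2 sets of numbers.

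Genes that work beside the subunits were read from lists. Of all probe sets tested, 19.6% were higher in nodose and 15.8% in DRG in whole ganglia. The shares were 10.4% and 11.3% in captured neurons on MG-U74Av2, and 9.72% and 12.5% on Mouse430_2. The list counts below are to be read beside these shares. Of assembly factors and other genes of the complexes, 7 were higher in nodose and 1 in DRG of 21 in whole ganglia, 0 and 2 of 21 in captured neurons on MG-U74Av2, and 6 and 6 of 49 on Mouse430_2. Cytochrome c, Cycs, which carries electrons from complex III to complex IV, had log2 differences of 0.49 (adjusted p = 0.0463), -1.31 (adjusted p = 2.26e-05) and -0.53 (adjusted p = 0.00315). Nodose was thus the higher group in whole ganglia and the lower one in captured neurons. On Mouse430_2 the complex I assembly factor Nubpl was higher in nodose, at 1.09 (adjusted p = 0.000168), and the complex V assembly factor Atpaf1 lower, at -1.31 (adjusted p = 0.00013).

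Of the tricarboxylic acid cycle and pyruvate entry, 5 genes were higher in nodose and 1 in DRG of 17 in whole ganglia, 3 and 0 of 17 in captured neurons on MG-U74Av2, and 7 and 1 of 22 on Mouse430_2. Dlst, of the 2-oxoglutarate dehydrogenase complex, was higher in captured nodose on both array types, at 0.82 (adjusted p = 0.0069) and 0.54 (adjusted p = 0.00491). Glycolysis genes had 4 and 3 of 17, 5 and 2 of 16, and 6 and 5 of 18. Ldhb, the lactate dehydrogenase subunit of oxidative tissues, was lower in nodose in all 3, at -0.57 (adjusted p = 0.0004), -0.97 (adjusted p = 0.000991) and -0.45 (adjusted p = 0.00775). Carrier, uncoupling and antioxidant genes had 3 and 1 of 11, 0 and 1 of 11, and 3 and 2 of 14.

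Regulators of mitochondrial genes had 0 higher in nodose and 2 in DRG of 9 in whole ganglia, 1 and 0 of 9 in captured neurons on MG-U74Av2, and 4 and 3 of 19 on Mouse430_2. Ppargc1a, a coactivator of mitochondrial biogenesis, was lower in nodose on Mouse430_2, at -2.09 (adjusted p = 9.13e-06), and its relative Ppargc1b higher, at 0.85 (adjusted p = 0.000215). Gabpa, the DNA-binding subunit of GABP, was lower, at -1.19 (adjusted p = 0.00117). Sirt3, a mitochondrial deacetylase, was higher in captured nodose on both array types, at 0.65 (adjusted p = 0.00751) and 0.72 (adjusted p = 2.92e-05).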

How the data were processed

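Affymetrix signals of 42 samples in 6 groups were used. The deposited intensity values are MAS5 signals per probe set, per the submitters' processing notes; the MAS5 version and any common scaling are not given in the sources used here. Control probe sets were left out. Arrays of a type were brought to 1 trimmed mean (2% from each end; 253 on MG-U74Av2, 141.2 on Mouse430_2), and log2(signal + pseudocount) was taken, with the 20th percentile as pseudocount (11.7 for whole ganglia, 11.0 for MG-U74Av2 captured neurons, 7.48 for Mouse430_2, 11.4 for the fit of 4 groups). Fold changes of dim genes are understated on this scale. A probe set was tested when it passed the 40th percentile of an array on a number of arrays equal to the smaller group or more. Tests used limma 3.58.1 (lmFit, then eBayes, robust and with a trend) under R 4.3.3, with Benjamini-Hochberg adjustment over all probe sets tested and a threshold of 0.05. Captured and whole samples on MG-U74Av2 were compared in 1 fit of 4 groups. The fits were tested on simulated data. At a true log2 difference of 0.5, 46.3% of changed probe sets were called in whole ganglia. In captured neurons 14.9% were on MG-U74Av2 and 10.4% on Mouse430_2, and 13.4% for the change between preparations. At a difference of 1 the shares were 91%, 76.1%, 62.7% and 53.7%. A gene not called may thus still differ. Only 67 probe sets were changed at each of these sizes, far fewer than were called in the data.

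Named genes are, per complex and comparison, up to 3 in each direction with the largest change among those called, those called alike or oppositely across the ganglion comparisons, complex II and the isoform families, and up to 3 genes per direction of each pathway list. The members and lists were chosen with earlier results of these data known. S6 kinase genes, which the symbol pattern of ribosomal proteins also matched, were left out of that list. Alternatives were quantile or median scaling, other pseudocounts, no filter, other probe set rules, array weights, a Gapdh 3′ to 5′ covariate, replicate blocks, subsets of sample numbers and leaving out arrays.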

Additional observations from a re-analysis of the deposited data

Results flagged for a closer look

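Single arrays stood apart from their group by a gap that was large for the range of the group in 5 of 147 gene and group pairs looked at (3.4%), where chance gives about 1 in 20. Atp5e read 44.6 on array 073 of whole nodose, where the others read 100 to 144. Sdhd read 1457 on array 019 of whole DRG, where the others read 998 to 1074. Ndufv1 read 1929 on array 008 of captured DRG on MG-U74Av2, where the others read 2441 to 2640. Sdhc read 778 on array 006 of captured DRG on MG-U74Av2, where the others read 1040 to 1122. Sdhd read 159 on array 011 of captured DRG on Mouse430_2, where the others read 203 to 237.

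The nodose minus DRG difference changed between whole ganglia and captured neurons on MG-U74Av2 for 20 members, by the interaction term of limma. As log2 values, captured minus whole, those below 0 were Ndufa2 (-0.76), Ndufa3 (-0.84), Ndufa6 (-0.61), Ndufa9 (-0.76), Ndufb10 (-0.57), Ndufb2 (-0.80) and Ndufb5 (-0.69) in complex I. In complex III they were Uqcr10 (-0.66), Uqcr11 (-1.98) and Uqcrq (-0.83). In complex IV they were Cox5b (-0.76), Cox6c (-0.81), Cox7b (-2.29) and Cox8b (-0.79). In complex V they were Atp5e (-1.53), Atp5md (-0.93) and Atp5o (-0.93). Those above 0 were Sdhb (0.50), Uqcrc2 (0.97) and Atp5g2 (0.74).

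On Mouse430_2 the difference changed with the set of sample numbers, those absent from MG-U74Av2 minus those also on it, for Ndufa3 (1.74), Ndufa4 (1.82), Ndufb7 (0.93), Uqcrc2 (-0.94), Cox6c (2.07) and Atp5k (1.22). Both sets of changes were tested as such, the second after the counts of each set were seen.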

How the results depend on the processing

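With every array set to the same median, whole ganglia had 15 members higher in nodose and 8 in DRG, Mouse430_2 had 0 higher in DRG, and 9 ganglion differences were lower in captured than in whole samples. With the mean of all probe sets of a gene, 2 members were higher in DRG in whole ganglia and 3 on Mouse430_2, beside 15.3% and 14.1% of all genes. Atp5d in whole ganglia was then 0.056. With probe sets free of shared probes, where fewer genes are tested, 3 of 44 were higher in DRG in whole ganglia, beside 17.3% of all probe sets. In captured neurons on MG-U74Av2, 3 of 44 were higher in DRG (11.2% of all). On Mouse430_2, 11 of 71 were higher in nodose (9.21% of all). Of 46 tested, 15 were higher in captured than in whole DRG (20.9% of all). The ganglion difference rose for 0 of 46 (8.28% of all) and fell for 10 (10.4%) in limma. Signs then turned for Atp5d (0.20) and Cox4i1 (-0.12) in whole ganglia, for Uqcrq (-0.20) and Cox8a (-0.024) on Mouse430_2, and for Atp5c1 captured minus whole (-0.47 in DRG, -0.36 in nodose).

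In captured neurons on MG-U74Av2, 3 members were higher in nodose without the filter, and 3 with the Gapdh 3′ to 5′ ratio as a covariate. The shares of all probe sets higher in nodose were then 5.61% and 6.78%, beside 10.4% in the main fit. Whether the same sample number in both ganglia means the same animal is not given. Of pairs with the same number, 1 of 4 on MG-U74Av2 and 2 of 7 on Mouse430_2 had a correlation over 0.1. The correlations ran from -0.11 to 0.11 and from -0.15 to 0.16. Low correlations between different ganglia cannot settle the question. A fixed replicate block over shared numbers left 3 and 11 members higher in nodose on the 2 array types, beside 6.15% and 6.16% of all probe sets. A random replicate block left 5 and 18, beside 10.2% and 9.94%. No block was run for whole ganglia, which share 1 number. In Mouse430_2 numbers absent from MG-U74Av2, 0 were higher in DRG and Ndufa4 was 0.88; in the numbers on both, 9 were higher in nodose and 11 in DRG. Without the 4 muscle-high nodose arrays, chosen after seeing the data, whole ganglia had 9 and 8. The causes were not tested.

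Leaving out 1 array at a time gave 20 to 27 higher in nodose and 4 to 6 in DRG in whole ganglia. The shares of all probe sets were then 16.4% to 20.9% and 13.3% to 17%. Captured neurons on MG-U74Av2 gave 2 to 7 and 8 to 10, beside 8.15% to 10% and 8.96% to 11.1%. Those on Mouse430_2 gave 15 to 22 and 4 to 6, beside 8.76% to 10.1% and 10.8% to 12.8%. Captured minus whole gave 23 to 26 higher and 5 to 8 lower in DRG, and 18 to 23 and 16 to 19 in nodose. With all arrays the shares were 22.9% and 24.3% in DRG, and 26.2% and 29.2% in nodose. The ganglion difference rose for 2 to 3 and fell for 13 to 17, where the shares with all arrays were 7.71% and 10.5%. Dim probe sets such as Uqcr11 in DRG limit what the arrays can resolve.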
